A study of Mus musculus with 26 samples.

Results

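The locus of Zfp42 was described by ATAC-seq, which marks accessible DNA by the insertions of the Tn5 transposase. Its members were the peaks that overlapped the gene span plus 50 kb on each side, and they numbered 12 of the 451563 peaks in 26 deposited lists, each list from 1 library. The gene was chosen by earlier readings of these same lists, in which every ES library and no FS library listed a peak at one of its ends. That pattern is therefore given here as a description, and no test was made.

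Zfp42, also called Rex1, encodes a zinc finger protein related to the transcription factor YY1, from whose gene it is thought to descend by retroposition. The gene is transcribed in naive embryonic stem (ES) cells and silenced as cells leave the naive state for the formative and primed states of the epiblast, which makes it a common marker of naive pluripotency. Its protein is a substrate of the ubiquitin ligase encoded by Rlim and takes part in the control of X inactivation, although mouse pluripotent cells can do without it.

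All cells were from mouse. The first set had 3 libraries each of 6 cultures: naive ES cells in 2iL medium at passage 16 (ES), formative stem cells in A3XR medium at passage 21 (FS1) and passage 29 (FS2), epiblast stem cells (EpiSCs) in AF medium at passage 22 (EpiSC_AF), and EpiSCs kept in AFX medium to passage 14 (EpiSC_AFX1) or passage 16 (EpiSC_AFX2). The Rd2 set had 2 libraries of ES cells in 2iL at passage 33 (Rd2_ES), 4 of epiblast-like cells (Rd2_EpiLC), which were induced over 2 days in AF with KSR and then sorted as GFP-low, and 2 of EpiSCs kept in AFX to passage 16 (Rd2_AFX). FS1 and FS2, like EpiSC_AFX1 and EpiSC_AFX2, are labelled as separate cultures of a type, while the labels do not say whether the libraries within a group came from separate cultures. The Rd2_EpiLC titles number the libraries in 2 parts of unstated meaning, so these 4 libraries may come from fewer distinct samples, and every count and SD over them holds for libraries only. The source label of the Rd2_ES cells names GFP but not the place of its insertion. Published Rex1 reporter ES cells carry GFP at 1 Zfp42 allele, and if the reporter used here was of that kind, the sort for low GFP was made on the activity of this very gene and the locus was not wild type.

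The lists differed in length, and a peak is more easily listed in a longer list. ES lists were the shortest of the first set, with at most 10961 peaks. FS lists held 11796 to 31263 peaks, EpiSC_AF lists 15505 to 24824 and EpiSC_AFX lists 17701 to 29575. In the Rd2 set the Rd2_EpiLC lists held 7469 to 26045 peaks, the Rd2_AFX lists 10719 and 11252, and the Rd2_ES lists only 471 and 2576, so that the absence of a peak from Rd2_ES carried little information. Read depth was unknown, and a missing peak does not show closed chromatin. Marker genes were also read. Of 8 naive markers, 4, Zfp42 among them, had a start peak in at least 1 ES library. Of 4 formative and primed markers, 1 did. Zfp42 was chosen for its peaks in ES, so it adds no support to the ES label. In the FS lists 5 of the naive markers and all 4 of the formative and primed markers had one in at least 1 library. In EpiSC_AF 6 of the naive markers did. These marker counts were not set against shares over all genes, so whether they bear out the labels was not tested. With each first-set list reduced to the length of the shortest, the naive markers numbered 4 in ES and 3 in FS, and the formative and primed markers 1 and 3. None of 4 fibroblast feeder, 4 primitive endoderm and 3 trophoblast markers had a peak in an ES list. In at least 1 of the longer FS lists 4, 1 and 2 of them did. Of the feeder markers, 3 had one in EpiSC_AF and 4 in EpiSC_AFX, so this was not particular to FS. No share over all genes was set beside these counts. At the reduced length Thy1 was the only feeder marker listed, in 3 of 6 FS and 5 of 6 EpiSC_AFX lists. The part of feeder cells in the differences at Zfp42 was not tested.

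Zfp42 spans chr8:43295067-43307009 in GRCm38.p6 on the minus strand, with its transcription start at 43307009. It is the only gene span of the RefSeq table in the 50 kb window. The nearest protein-coding neighbours are Triml2, 101.2 kb beyond the 3′ end, and Adam26b, 212.9 kb upstream of the start. The RefSeq promoter window of 300 bases, chr8:43306960-43307259 (GRCm38.p6, minus strand), is printed because 6 of the 12 peaks fell on it. It reads 5′ to 3′ and ends 50 bases after the start, and capitals mark matches to an octamer, a KLF core and an SP core.

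Zfp42 promoter: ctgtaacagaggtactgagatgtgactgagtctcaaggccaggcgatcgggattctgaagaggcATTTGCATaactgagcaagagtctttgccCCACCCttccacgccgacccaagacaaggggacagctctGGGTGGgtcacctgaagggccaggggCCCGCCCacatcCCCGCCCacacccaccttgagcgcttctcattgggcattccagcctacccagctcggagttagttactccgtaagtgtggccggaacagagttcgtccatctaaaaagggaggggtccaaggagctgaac

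Exact letters were searched on both strands. The octamer ATGCAAAT, the element that POU factors such as Oct4 bind, matched once, as its reverse complement ATTTGCAT, 186 to 179 bp upstream of the start. This octamer was found in 1.74% of the 32851 RefSeq promoter windows of the same length. The KLF core CCACCC matched at 157 to 152 bp and, on the other strand, at 118 to 113 bp upstream, and 31.5% of windows held it. The SP core CCCGCCC matched at 92 to 86 bp and at 80 to 74 bp upstream, and 25.6% of windows held it. No match was found for the SOX cores ACAAAG and ACAATG (18.7% and 12.6% of windows), the ESRRB element TCAAGGTCA (0.423%), the YY1 core CCATNTT (16.1%) or the TCF core CTTTGAT (3.73%). GC content of the window was 57.7%, against a median of 52.7% over all windows. A match is a description of the letters and does not show that a factor was bound.

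The 12 peaks formed 3 regions when overlapping peaks were merged. The first lay at the transcription start, from 43306952 to 43307410, with 6 peaks. The second lay 13.7 to 14.2 kb upstream of the start, at chr8:43320729-43321235, with 3 peaks. The third lay 26.6 to 26.8 kb upstream, at chr8:43333586-43333814, also with 3 peaks. Both upstream regions were intergenic in the table. No peak lay within the gene body away from the start or beyond its 3′ end in any of the 26 lists.

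**Figure D1:**
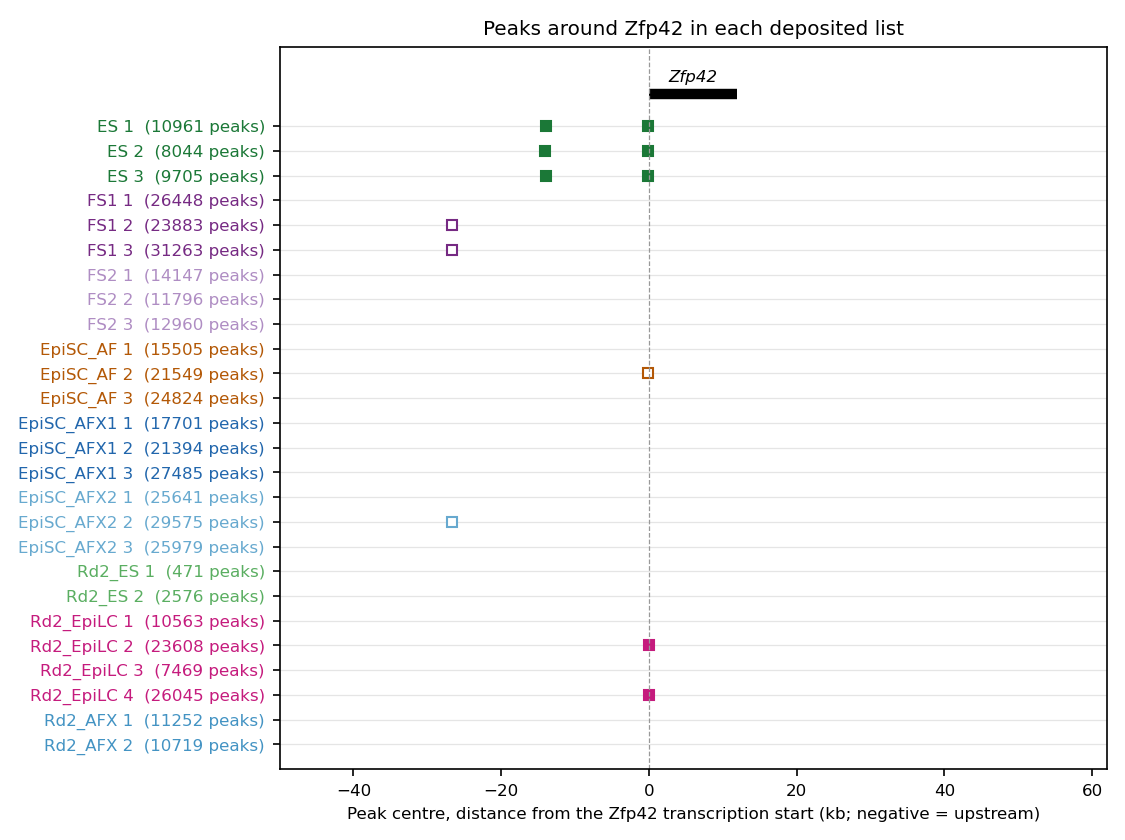
Peaks around Zfp42 in each of the 26 lists, with libraries in rows (list length in parentheses) and the distance of the peak centre from the transcription start in kb on the x axis. Each square is 1 peak, open squares are first-set peaks that fall out when each list is reduced to the length of the shortest, and the 3 ES lists alone hold both the start peak and the peak 14 kb upstream.

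Peaks at the start were listed in 3 of 3 ES libraries, in 0 of 6 FS libraries, in 1 of 3 EpiSC_AF libraries and in 0 of 6 EpiSC_AFX libraries. Of 17492 protein-coding genes with a start in the promoter table, 15 genes, or 0.0858%, had a peak within 1 kb of a start in 3 of 3 ES and 0 of 6 FS lists, and ES lists were the shorter ones. A stricter pattern, which also allowed no peak in the EpiSC lists of the first set, was met by 0.0457% of genes and not by Zfp42, because of EpiSC_AF replicate 2. When each first-set list was reduced to its peaks of highest −log10 p, as many as the shortest list holds (equal list length), Zfp42 met both patterns. They were then met by 0.412% and 0.229% of genes. The contrast of ES with FS chose the gene, so these shares are given as background only.

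Each peak was placed by its percentile rank, which is the position of its −log10 p within its own list, with 100 for the highest. At the start, the percentile rank was 41.4 in ES replicate 1, 88.2 in ES replicate 2 and 86.6 in ES replicate 3. ES replicate 1, the longest ES list, stood apart from the other two. The authors' fold enrichment of these peaks was 3.86, 5.22 and 4.93, and their −log10 q was 1.91, 4.52 and 4.42. The EpiSC_AF replicate 2 peak had a rank of 31.0, being number 14868 of 21549 peaks, and was lost at equal list length. It was the lowest-ranked start peak, and replicates 1 and 3 of the same group, one with a shorter and one with a longer list, had none.

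In the Rd2 set the start had a peak in 2 of 4 Rd2_EpiLC lists, in 0 of 2 Rd2_ES lists and in 0 of 2 Rd2_AFX lists. The Rd2_EpiLC peaks ranked at 83.6 in replicate 2 and 89.9 in replicate 4. Their fold enrichment was 5.67 and 6.22 and their −log10 q was 5.10 and 6.11, each above the ES values at the start. Ranks place a peak within its own list and show no difference in level between lists. The lists of replicates 2 and 4 were the long ones of the group, with 23608 and 26045 peaks, and replicates 1 and 3, with 10563 and 7469 peaks, had no peak. The peaks were number 3875 and number 2634 of their lists, and so remained when each list was reduced to its top 7469, the length of the shortest of the 4. Rd2_AFX lists of 10719 and 11252 peaks, longer than both Rd2_EpiLC lists without a peak, also had none.

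**Figure D2:**
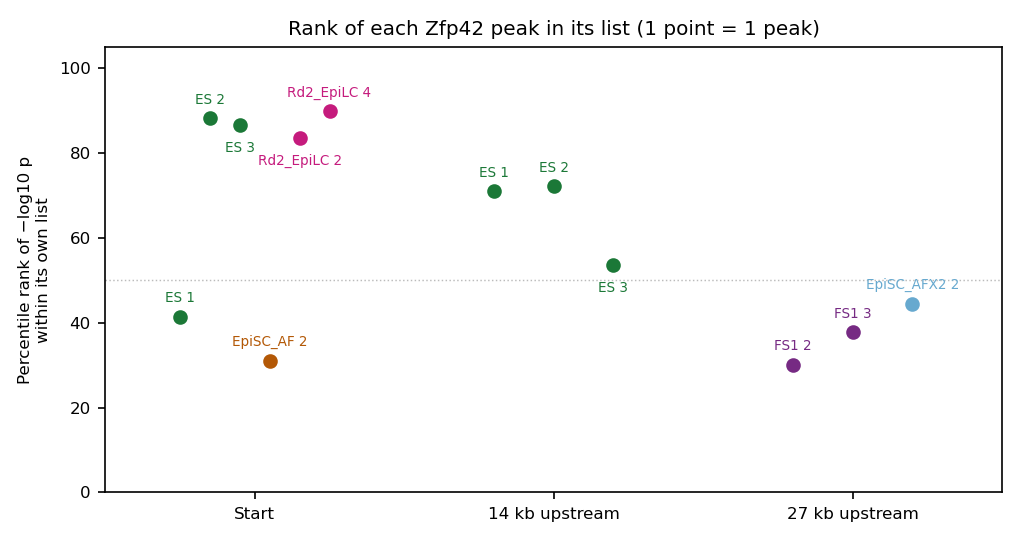
Percentile rank of the −log10 p of each of the 12 peaks within its own list (y axis), by region (x axis), with 1 point for each peak and the dotted line at 50. Start peaks range from 31.0 in EpiSC_AF replicate 2 to 89.9 in Rd2_EpiLC replicate 4, those 14 kb upstream are all from ES and above 50, and those 27 kb upstream are all below 50.

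The start peaks differed in width and reach. They were 425 bp wide in ES replicate 1, 176 bp in ES replicate 2 and 298 bp in ES replicate 3. Their upstream edges lay 401, 189 and 247 bp before the start. The ES replicate 2 peak ended 14 bp short of the start itself, and the other 5 start peaks covered it. The EpiSC_AF replicate 2 peak was 302 bp wide and reached 290 bp upstream. The Rd2_EpiLC peaks were narrower, at 148 bp in replicate 2 and 172 bp in replicate 4, and reached only 99 and 114 bp upstream. All 4 first-set peaks therefore contained the octamer and both KLF matches in capitals above, and neither Rd2_EpiLC peak contained any of these 3 matches whole. All 6 peaks contained both SP matches. The shortest peak listed was 150 bp in the first set and 110 bp in the Rd2 set, and the part of this difference between the sets in the narrower peaks was not tested.

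**Figure D3:**
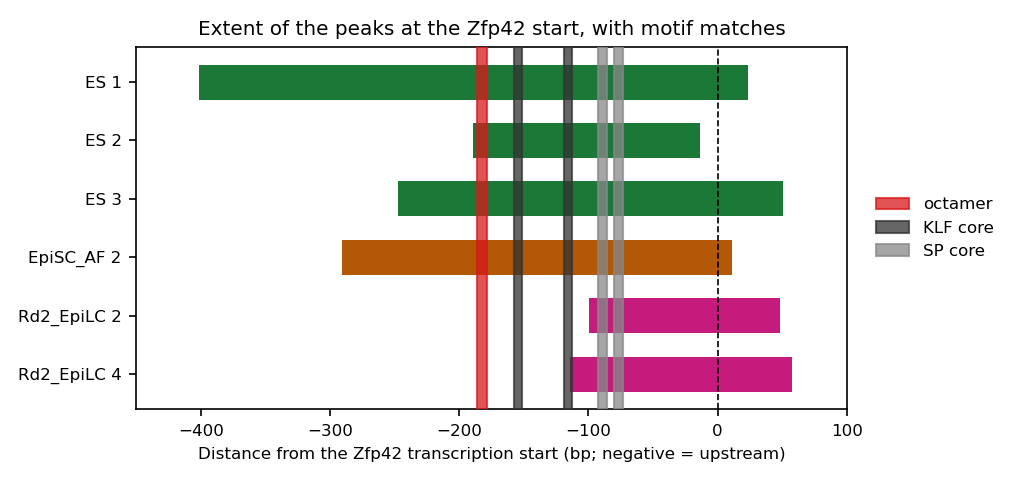
Extent of the 6 peaks at the Zfp42 start (bars, 1 per library), as distance from the transcription start in bp, with the dashed line at the start and coloured bands at the octamer, KLF and SP matches. The 4 first-set bars cross the octamer, 186 to 179 bp upstream, and the 2 Rd2_EpiLC bars stop at 99 and 114 bp.

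The region 14 kb upstream had a peak in 3 of 3 ES lists and in none of the other 23 lists of either set. Its percentile ranks were 71.0 in ES replicate 1, 72.2 in replicate 2 and 53.5 in replicate 3. The peaks were 453, 345 and 414 bp wide, and 291 bp were shared by all 3. In ES replicate 1 this peak ranked above that at the start, whereas in replicates 2 and 3 it ranked below it. The mean rank of the ES peaks was 72.1 ± 26.6 (SD, n = 3) at the start and 65.6 ± 10.4 (SD, n = 3) upstream. Both positions were read in the same 3 libraries and their order differed between libraries, so no difference between the positions is stated. Unlike the start, the upstream region had no peak in the long Rd2_EpiLC lists. All 3 peaks remained at equal list length. Regions listed by every ES library and by no other library of the first set made up 132 of 67172 union regions, or 0.197%, with the lists as deposited and 1.48% at equal list length.

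Some genes had both a start peak in every ES and no FS list and a distant region listed in the first set by ES alone. Of the 15 genes with a start peak in every ES and in no FS list, 3 genes also had, within 50 kb of the gene and away from the start, a region listed in every ES and in none of the other 15 libraries: Zfp42, Gm10479 and Gm3973. Over all 17492 genes, whatever their own start, 0.663% of windows held such a distant region. At equal list length it was 6 of 72 genes, against 1.9% of all windows. The 15 and the 72 genes were picked by their ES and FS peaks in these same lists, so these shares are given as background only.

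The region 27 kb upstream had no peak in ES and a peak in 3 of the other 15 first-set lists. It was listed in FS1 replicates 2 and 3 and in EpiSC_AFX2 replicate 2, at percentile ranks of 30.02, 37.7 and 44.5. These peaks were 163, 150 and 181 bp wide, at or near the shortest that the first set allowed. They were number 16715, 19469 and 16414 of their lists, and none remained at equal list length. FS1 replicate 3 and EpiSC_AFX2 replicate 2 were the longest lists of the first set, at 31263 and 29575 peaks, and FS1 replicate 2 held 23883. FS1 replicate 1, with 26448 peaks, had none, nor had any FS2 library. Other lists longer than that of FS1 replicate 2 also had none. These were EpiSC_AFX1 replicate 3 (27485 peaks), EpiSC_AFX2 replicates 1 and 3 (25641 and 25979) and EpiSC_AF replicate 3 (24824). The region 27 kb upstream was thus seen only as low-ranked peaks of long lists, and not in every long list.

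Summed over the window, ES libraries had 2 peaks each. FS libraries had a mean of 0.333 ± 0.516 peaks (SD, n = 6), EpiSC_AF 0.333 ± 0.577 (SD, n = 3), EpiSC_AFX 0.167 ± 0.408 (SD, n = 6) and Rd2_EpiLC 0.5 ± 0.577 (SD, n = 4), and every ES library was above every other library. The FS and EpiSC_AFX values pool libraries of separate cultures, so their SDs hold for libraries only. By culture the means were 0.667 in FS1, 0 in FS2, 0 in EpiSC_AFX1 and 0.333 in EpiSC_AFX2. Rd2_ES and Rd2_AFX libraries had 0. The same window was then counted around each of 21631 protein-coding genes in each list, as background. In the ES lists, 35.3% to 44.6% of gene windows held no peak, and the 2 peaks of Zfp42 exceeded the count in 66.96% to 77.8% of windows. In the FS1 lists the share of windows without a peak was 13.1% to 17.7%, and in the EpiSC_AFX2 lists 13.95% to 15.9%. Even so, the Zfp42 window was empty in 1 of 3 FS1 and 2 of 3 EpiSC_AFX2 lists and held 1 peak in the others. In FS2, where all 3 Zfp42 windows were empty, 27.4% to 32.4% of windows were, and in EpiSC_AFX1, also empty in all 3, it was 15.1% to 22.4%. The locus stood in the upper part of the gene windows in ES and in the lowest 37.0% in every other first-set library. Its ES and FS peaks chose the gene, so this place is a description only.

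**Figure D4:**
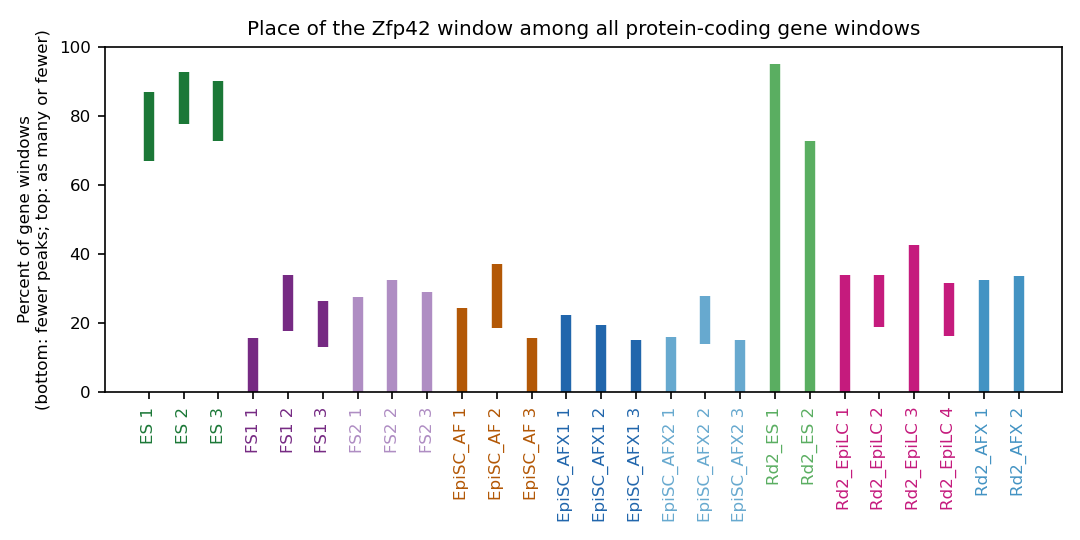
Place of the Zfp42 window among the windows of all protein-coding genes in each list, where the bottom of a bar is the percent of windows with fewer peaks and its top the percent with as many or fewer. Bars of the 3 ES lists start at 66.96% or above, those of the other 15 first-set lists end at 37.0% or below, and the tall Rd2_ES bars belong to lists of 471 and 2576 peaks in which most windows are empty.

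The surroundings were sparse in all lists. Within 300 kb of the gene and outside the window, 8 further regions were listed, of which 5 were seen in a single library. One of the others, 296.1 kb upstream at chr8:43603156-43603850, had a peak in 3 of 3 ES lists and in Rd2_EpiLC replicates 2 and 4, which are the libraries with a peak at the start except EpiSC_AF replicate 2. No other list had it, and 2 of the 3 ES peaks remained at equal list length. The peaks of this region ranked from 15.5 to 66.9 in their lists. Rd2_EpiLC replicates 2 and 4 were the long lists of their group, and a link of this region with the start was not tested. Another, 100.3 kb upstream at chr8:43407322-43407806, had none in ES and a peak in 1 FS1, 2 EpiSC_AF, 2 EpiSC_AFX1 and 3 EpiSC_AFX2 lists, none of which remained at equal list length. The third, 288.7 kb beyond the 3′ end, was listed in 2 ES, 1 FS1 and 1 EpiSC_AF library. The retrocopy Zfp42-ps1 on chromosome 15 had no peak within 1 kb in any list.

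Of the 20 other genes on a list of naive genes, 0 had a start peak in 3 of 3 ES and 0 of 6 FS lists as deposited. The list also holds Pou5f1, Sox2 and Nanog, which are shared pluripotency markers and not specific to the naive state. With 0.0858% of all genes in this pattern, a count of 0 among 20 is near the background and says nothing particular about the list. Starts were read within 1 kb, or at either gene end for the 6 genes with no start in the promoter table. Klf2, Klf5, Tbx3, Fgf4, Tet2 and Sox2 had a peak in 3 of 3 ES lists, and each also had one in at least 4 of 6 FS and in 6 of 6 EpiSC_AFX lists. Of all 17492 genes with a start in the promoter table, 2636 had a start peak in 3 of 3 ES lists, and only 15 of these had none in any FS list. An FS peak was therefore common for such genes and not particular to those named. Klf5, a Krüppel-like factor of the naive network, and Fgf4, the ligand that drives exit from the naive state, had one in 6 of 6 FS lists. Esrrb, Tfcp2l1 and Gbx2, transcription factors that sustain naive self-renewal, had no start peak in ES, and in 2, 5 and 4 of 6 FS lists and 6 of 6 EpiSC_AFX lists they did. Nanog and Klf4 had one in 2 of 3 ES lists each and Pou5f1, the gene of Oct4, in 1 of 3, and all 3 genes had one in 4 of 6 FS lists. Nr5a2, Dppa3, Prdm14, Tcl1, Nr0b1, Spic, Dppa2 and Dppa4 had none in any first-set list. At equal list length Esrrb had a peak in no first-set list and Gbx2 in 1 EpiSC_AF list alone, while Tfcp2l1 still had one in 4 of 6 FS lists and none in ES. Fgf4 and Sox2 were then left with 2 of 3 ES lists. In FS, Klf2 then had a peak in 4 of 6 lists, Klf5 in 6, Fgf4 in 5, Tet2 in 2 and Sox2 in 1. In EpiSC_AFX their counts were 4, 6, 3, 3 and 5 of 6. Nanog, Klf4 and Pou5f1 then had one in 1, 2 and 4 of 6 FS lists, and in 2, 2 and 0 of 3 ES lists. Tbx3 was listed by every ES library and by none of the other 15, the 1 gene of the 20 with the Zfp42 pattern. Among all genes with a start in the promoter table, 0.229% were likewise limited to ES. The share was 0.412% where FS alone had to lack the peak. Tbx3 was read at either gene end and these shares at starts only, so the measures differ.

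**Figure D5:**
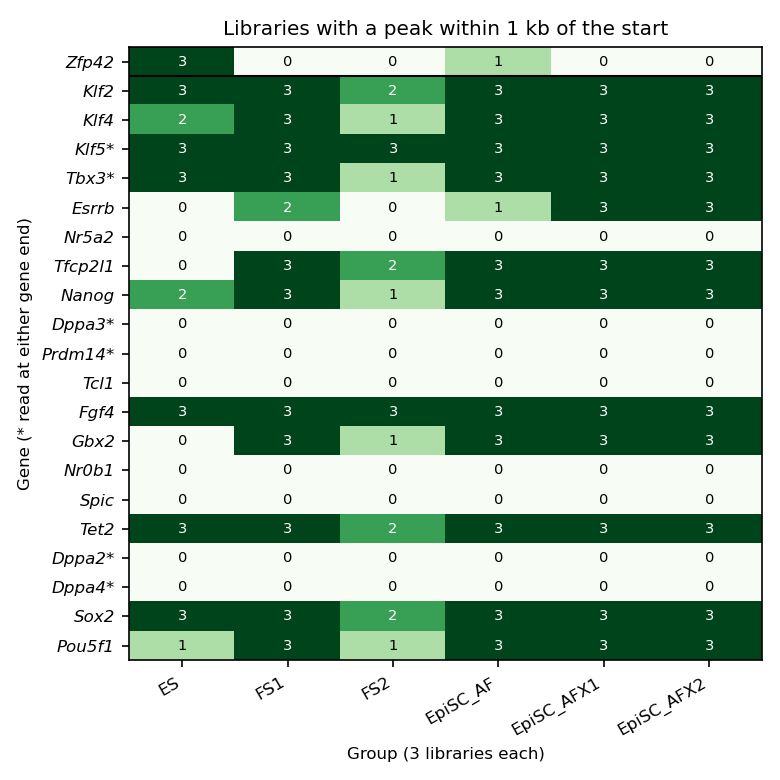
Number of libraries, of 3 in each first-set group (columns), with a peak within 1 kb of the start in the lists as deposited. Rows are Zfp42 (top) and the 20 other genes of the naive list, which includes shared pluripotency markers. Zfp42 reads 3 in ES and 0 in FS1, FS2, EpiSC_AFX1 and EpiSC_AFX2, and none of the rows below has this pattern.

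Of 12 formative genes, 5 of them read at either gene end, 0 had the Zfp42 pattern, which again is near the background. The reverse pattern, with no ES and 6 of 6 FS lists, was met by 2 of the 12 and by 3.46% of all genes: Dnmt3a, a de novo DNA methyltransferase read at its start, and Tcf15, a transcription factor gene of the formative stage read at either end. At equal list length it was met by 0 of the 12 and by 1.01% of all genes, with Dnmt3a in 5 and Tcf15 in 3 of 6 FS lists and neither in ES. Yy1, whose protein is the relative of Zfp42, had a start peak in all 18 first-set lists, and the retrogene Yy2 in none. Rlim had a start peak in 1 ES library of 3, 4 FS libraries of 6 and all 6 EpiSC_AFX libraries. The imprinted genes Peg3 and Gnas had one in 1 of 3 ES lists each, and in 4 and 5 of 6 FS lists. Xist and Tsix had none in the first set. At equal list length the counts of Yy1, Yy2, Rlim, Xist and Tsix stayed the same. Gnas was then listed by 1 ES and 4 FS libraries, and Peg3 by 0 and 3. No share over all genes was set beside the counts of these 7 genes.

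Likeness was then measured over the 18 first-set lists as the number of lists in which a gene differed from Zfp42 in having a start peak. No other gene had 0 mismatches, 8 genes had 1 and 20 had 2, while a gene with no start peak at all has 4. The 8 nearest were 2410141K09Rik, Zfp640, Khdrbs2, Rbmxl2, Gm6871, Gm3973, Gm38699 and Gm46425, each with a start peak in 3 of 3 ES lists and in none of the other 15. Their mean percentile rank in ES ran from 93.4 for 2410141K09Rik to 38.8 for Gm46425, and that of the Zfp42 start lay within this range. Gm40881 and Zfp996, with ranks of 88.1 and 86.3, led those with 2 mismatches. In the Rd2 set 7 of the 8 nearest genes had a start peak in at least 1 Rd2_EpiLC list. Of the 10 named genes, 5 had one in all 4 Rd2_EpiLC lists: Zfp640, Khdrbs2, Rbmxl2, Gm6871 and Gm40881. Zfp42 had it in 2 of 4. Of all genes, 59.1% had a start peak in at least 1 Rd2_EpiLC list and 22.9% in all 4. Among the 2636 genes with a start peak in 3 of 3 ES lists the shares were 98.9% and 79.8%, so presence in Rd2_EpiLC was common for such genes and not particular to those named. Several of the named genes are zinc finger or predicted genes, and whether close copies share reads with them was not tested.

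One setting ended the ES pattern. None of the 6 ES peaks in the window reached a −log10 q of 5, the highest being 4.52 at the start in replicate 2, so with that minimum the ES lists held no peak at Zfp42. Both Rd2_EpiLC start peaks passed the minimum, at 5.10 and 6.11, and no other start peak did. Only 761 to 1041 peaks of an ES list passed it, against 1238 to 10170 in the FS lists and 4100 and 4352 in Rd2_EpiLC replicates 2 and 4.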

How the data were processed

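ATAC-seq peaks were read from 26 deposited broadPeak lists, 1 for each library of 50000 cells, so peaks were called per sample. The submitters' processing notes name Trim Galore, Bowtie, Picard, MACS2 and the build mm10, without versions or parameters. Each deposited peak carries a fold enrichment (a ratio to an unstated background), a −log10 p and a −log10 q, and a deposited score that was not used. These values served to rank peaks within a list and, as 1 minimum of −log10 q set on every list, to filter them. First-set peak names carry a tag that Rd2 names lack, and the shortest widths differ, so values set side by side across the sets are descriptions only.

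Coordinates are 1-based. Gene spans, starts and promoter sequence came from RefSeq tables of GRCm38.p6, the assembly that mm10 names, and 17492 of 21900 protein-coding genes had a start in the promoter table. Peaks counted as present with 1 bp of overlap. Groups followed the source label. The locus and the gene lists were chosen with earlier results of these data known, so no test was made. The genes named beside Zfp42 were its neighbours, the members of the lists and the 10 genes with the fewest mismatches, ties broken by rank in ES. Python 3.11.15, pandas 2.3.3 and numpy 2.4.6 were used, and the overlap functions were tested on simulated data. Alternatives were list length, −log10 q, distance, window, ranking by fold enrichment and leaving out each library. Sequence of the distal regions was not analysed here.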

Additional observations from a re-analysis of the deposited data

Results flagged for a closer look

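Among the 6 EpiSC_AFX libraries, EpiSC_AFX2 replicate 2 stood away from the rest in the number of peaks within 50 kb of Zfp42, with 1 peak against 0 in each of the other 5. The peak is the low-ranked one 27 kb upstream, in the longest EpiSC_AFX list. Since the other 5 values are 0, any single peak raises this flag. For measures without such ties, chance flags about 1 in 20 groups, and 6 combinations of group and measure were looked at.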

How the results depend on the processing

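No paired analysis was possible because no result came from a test and the labels do not say that libraries of the same number share a culture or day. With a −log10 q of at least 5, the share of ES libraries with a peak at the Zfp42 start was 0% in place of 100%, the mean number of ES peaks in the window was 0 in place of 2, and 1 protein-coding gene, 2410141K09Rik, had a start peak in 3 of 3 ES and 0 of 6 FS lists in place of 15. Fewer peaks enter at that minimum. At equal list length 72 genes had this pattern. These were the 4 values, of 59 under settings other than leaving out a library, that moved by more than 1 SD over the libraries or, for a count of genes, by over 1.5 times. Means resting on 1 or 2 peaks fell to 0 within that SD. The EpiSC_AF share at the start fell from 1 of 3 libraries to 0 at equal list length, by −log10 p or by fold enrichment, and at the −log10 q minimum. The window means of FS, EpiSC_AF and EpiSC_AFX fell to 0 under the same settings, and those of FS and EpiSC_AFX also with the 20 kb window. No presence at the Zfp42 start changed with a shorter distance or one of 5 kb, nor in the Rd2 set with the top 7469 peaks of each list, a setting chosen after seeing the data. The Rd2_EpiLC share at the start stayed at 50% with the −log10 q minimum. Windows of 20 kb and 100 kb kept 2 peaks in each ES list, and the 20 kb window dropped the region 27 kb upstream. Leaving out a library gave 15 to 22 genes. Single libraries carried some means: without EpiSC_AF replicate 2 the start had no EpiSC_AF peak, without EpiSC_AFX2 replicate 2 the EpiSC_AFX window held none, and without FS1 replicate 2 or 3 the FS mean was 0.2. Depth was unknown and limits what an absent peak shows.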
